A study of Homo sapiens with 6 samples.

Results

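The tumor necrosis factor (TNF) ligand and receptor superfamilies were followed in HEK293 cells, an established human embryonic kidney line, through 44 protein-coding genes of the 57123 genes counted. Members were chosen by symbol: every gene whose symbol starts with TNFSF or TNFRSF, plus TNF, LTA, LTB, FAS, FASLG, CD40, CD27, CD70, LTBR, NGFR and EDAR. This gave 17 ligands and 27 receptors. The 7 receptors on the short arm of chromosome 1 (1p), which are TNFRSF18, TNFRSF4, TNFRSF14, TNFRSF25, TNFRSF9, TNFRSF8 and TNFRSF1B, are described apart from the 37 other members.

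RNA was sequenced from 3 libraries labelled WT and 3 labelled MUL1(-/-), grown in the same medium with no treatment named, and the deposited values are raw counts per exon bin. In the line labelled MUL1(-/-), CRISPR-Cas9 was used to inactivate MUL1, which codes for a mitochondrial E3 ubiquitin ligase, and the clone or clones behind the 3 libraries are not given in the sources used here. Bins were added up per gene, and the gene counts came to 127015142 to 142803296 per WT library and 121917971 to 122441959 per MUL1(-/-) library. Nothing in the labels says that libraries of a genotype came from separate cultures, so the p-values measure the spread between these libraries only. Levels are given in CPM, the count scaled to the normalised size of its library. MUL1 itself was at 16.5 ± 2.15 CPM among WT and 18.2 ± 1.35 CPM among MUL1(-/-) libraries (SD, n = 3 per genotype). Its log2 fold change was 0.14 (edgeR adjusted p = 0.321). An edit that leaves a transcript in place is not visible in this count, which therefore did not check the labels.

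TNF superfamily ligands are mostly membrane-bound or shed trimers that cluster their receptors on the surface of a target cell. Receptors with a cytoplasmic death domain, such as FAS, TNFRSF1A and the receptors for TRAIL, can assemble caspase-activating complexes, while most others bind TRAF adaptors and signal to NF-kB and MAP kinases. Decoy receptors bind a ligand without passing on a death signal. Most members are known for their part in lymphocyte activation, inflammation and the removal of infected or transformed cells.

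A member was counted as higher or lower in MUL1(-/-) when edgeR's quasi-likelihood test gave a Benjamini-Hochberg adjusted p under 0.05 and the absolute log2 fold change was above 1. Of the 6 members past both thresholds, 4 are shown here as the sequence next to the measured change. The sequence is the 250 bases before the RefSeq transcript start in GRCh38.p14. TNFRSF10C and TNFRSF11B, both higher in MUL1(-/-), had no window in the set used and are not shown. Capitals mark matches, on either strand, to a search with 4 motifs: the NF-kB consensus, TGANTCA (bound by AP-1 factors), GGGCGG (a GC box) and TATAAA. Among 35116 promoter windows of the same length these motifs occurred in 9.96%, 6.57%, 42.6% and 10.7%, and among the 37 windows of the 28 members with a RefSeq window they occurred in 11, 6, 22 and 6. The 2 NF-kB consensus matches of TNFRSF9 overlap each other. All 4 sequences read 5′ to 3′ along the strand of the gene and end at the base before the start.
TNF (chr6:31575315-31575564, plus strand): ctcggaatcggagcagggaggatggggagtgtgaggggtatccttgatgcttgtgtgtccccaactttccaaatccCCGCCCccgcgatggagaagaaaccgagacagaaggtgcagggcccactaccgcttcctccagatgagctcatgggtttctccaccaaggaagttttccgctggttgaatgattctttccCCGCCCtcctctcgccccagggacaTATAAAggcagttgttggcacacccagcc
TNFRSF9 (chr1:7940840-7941089, minus strand): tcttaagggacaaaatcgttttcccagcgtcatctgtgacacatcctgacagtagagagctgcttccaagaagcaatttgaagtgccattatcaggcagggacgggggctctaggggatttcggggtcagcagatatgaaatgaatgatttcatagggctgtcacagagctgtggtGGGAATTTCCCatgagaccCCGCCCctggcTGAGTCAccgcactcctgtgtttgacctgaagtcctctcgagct
TNFRSF25 (chr1:6466174-6466423, minus strand): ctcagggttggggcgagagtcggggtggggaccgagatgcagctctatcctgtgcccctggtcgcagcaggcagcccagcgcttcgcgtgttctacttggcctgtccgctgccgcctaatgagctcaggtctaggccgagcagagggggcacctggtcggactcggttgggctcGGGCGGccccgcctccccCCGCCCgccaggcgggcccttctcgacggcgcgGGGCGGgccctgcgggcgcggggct
TNFSF10 (chr3:172523431-172523680, minus strand): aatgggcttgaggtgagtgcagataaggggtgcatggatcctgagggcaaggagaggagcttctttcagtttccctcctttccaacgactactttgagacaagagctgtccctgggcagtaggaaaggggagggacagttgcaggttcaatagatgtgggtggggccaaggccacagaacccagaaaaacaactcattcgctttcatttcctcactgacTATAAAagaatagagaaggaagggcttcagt

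The windows differ in composition. That of TNFRSF25 holds 26 CG dinucleotides at 73.6% GC and has 3 GGGCGG matches, starting at positions -76, -58 and -25 from the transcript start. The TNF window holds 10 CG dinucleotides, 2 GGGCGG matches and a TATAAA at -29. TNFSF10 has 2 CG dinucleotides and a TATAAA at -31, and no other match. In TNFRSF9 the matches are to the NF-kB consensus at -74 and -73, TGANTCA at -44 and GGGCGG at -55, with 7 CG dinucleotides, against a median of 11 over all windows. The exon bins that the deposited annotation places farthest upstream in TNFRSF9 had 0 counts in all 6 libraries, which allows up to 3 counts each. These matches are letters in a window, and no binding was measured.

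Of the 44 members, 32 had enough counts to be tested, 11 ligands and 21 receptors. In MUL1(-/-) 3 of them were higher (TNFRSF11B, TNFSF10 and TNFRSF10C) and 3 were lower (TNF, TNFRSF9 and TNFRSF25), while 26 did not pass both thresholds. Over all 25125 tested genes, 4.23% were higher and 3.87% were lower by the same rule. An adjusted p under 0.05 alone was reached by 12 members, 37.5% of those tested, and by 37.5% of all tested genes. The 3 libraries of 1 genotype all lay above or all lay below those of the other for 14 members (43.8%), against 48.5% of all tested genes. The members' median log2 fold change was 0.10 and that of all tested genes was -0.01. As the 32 tested members are those that were not too low in both genotypes, these shares are not shares of the whole family. TNFRSF11B had enough counts to be tested in MUL1(-/-) alone and TNF in WT alone, in each case the genotype where it was higher. Their p-values were not adjusted for this selection. The libraries are bulk RNA, in which fewer cells with a transcript and less of it per cell cannot be told apart.

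**Figure D1:**
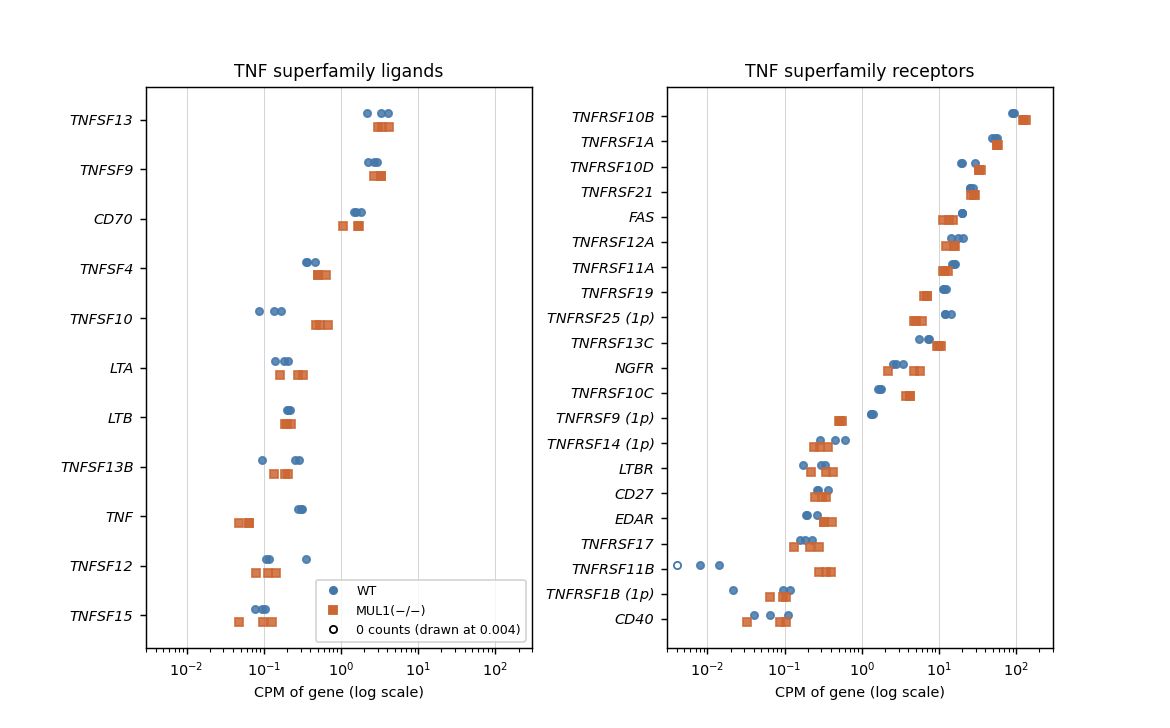
Level of each tested TNF superfamily gene in each library, in CPM on a log axis, with ligands on the left and receptors on the right, ordered by mean. Circles are the 3 WT and squares the 3 MUL1(-/-) libraries, and an open symbol stands for 0 counts; the receptors TNFRSF10B and TNFRSF1A lie highest, above 40 CPM, and no ligand exceeds 5 CPM.

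Receptors made up nearly all of the family's counts. Summed CPM over the receptors was 272 to 292 in WT and 311 to 326 in MUL1(-/-), and over the ligands it was 7.61 to 10.7 and 8.76 to 11.5. Divided by the length of the bins, so that genes can be set beside each other, the WT levels per kilobase ran from TNFRSF10B (16.9 to 17.9 CPM per kb over the 3 libraries) through TNFRSF1A (12.1 to 13.9), TNFRSF12A (7.74 to 11.2), TNFRSF21 (6.92 to 7.67) and TNFRSF10D (5.48 to 8.36) to FAS (5.30 to 5.36). TNFRSF21 and TNFRSF10D did not differ beyond their spread in WT. In MUL1(-/-) the levels per kilobase were 23.9 to 26.3 CPM per kb for TNFRSF10B, 13.9 to 14.3 for TNFRSF1A and 9.24 to 9.87 for TNFRSF10D, with TNFRSF12A (6.77 to 8.73) and TNFRSF21 (7.21 to 8.15) overlapping each other and FAS at 2.98 to 3.99. The counting program is not known, but there were 1760 bins no longer than 12 bases with more than 1000 counts in some library, as when a read counts in every bin it touches. A gene cut into many short bins would then have a level per kilobase that is too high.

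Among the ligands, TNF and TNFSF10 passed both thresholds, in opposite directions. TNF, the inflammatory cytokine that gives the family its name and signals through TNFRSF1A and TNFRSF1B, was lower in MUL1(-/-). Its counts were 40, 43 and 35 in WT replicates 1 to 3 and 6, 8 and 8 in MUL1(-/-) replicates 1 to 3. These are levels of 0.315, 0.304 and 0.278 CPM against 0.0474, 0.0639 and 0.0646 CPM. The genotypes did not overlap, and each of the 4 bins of TNF was lower in every MUL1(-/-) library than in any WT library. Here and below, bins of a gene come from the same 6 libraries and can share reads, so their agreement is not independent support. The log2 fold change was -2.33 ± 0.34 (SE; edgeR adjusted p = 6.92e-05), a 5.04-fold difference at a level of 22 counts in all against 118. TNF had enough counts to be tested in WT alone. The 20 nearest tested genes had a median log2 fold change of -0.10.

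TNFSF10 codes for TRAIL, the ligand of the death receptors TNFRSF10A and TNFRSF10B. It had 11, 19 and 21 counts in the WT libraries and 60, 68 and 84 in the MUL1(-/-) libraries, or 0.0866, 0.134 and 0.167 CPM against 0.474, 0.543 and 0.678 CPM. Every MUL1(-/-) library was above every WT library. TNFSF10 had a log2 fold change of 2.12 ± 0.29 (SE; edgeR adjusted p = 3.98e-05), and 5 of the 6 bins with enough counts to compare were higher without overlap. Its 20 nearest tested genes had a median of 0.46.

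The other 9 tested ligands did not pass either threshold. TNFSF13 (APRIL) and TNFSF9 (the ligand of TNFRSF9) were the most counted, at 3.16 ± 0.93 against 3.52 ± 0.581 CPM and 2.60 ± 0.325 against 3.10 ± 0.335 CPM (SD, n = 3 per genotype), with log2 fold changes of 0.16 and 0.25. CD70, the ligand of CD27, held 1.62 ± 0.194 CPM in WT and 1.47 ± 0.346 CPM in MUL1(-/-), a log2 fold change of -0.14, while the median of its 20 nearest tested genes was 0.56. LTA and LTB, the lymphotoxin chains encoded on either side of TNF, had log2 fold changes of 0.52 (edgeR adjusted p = 0.231) and -0.04 (edgeR adjusted p = 0.928). The values for both overlapped between the genotypes, unlike those for TNF. TNFSF4 (OX40 ligand) had a log2 fold change of 0.49, with an edgeR adjusted p of 0.101 although its libraries did not overlap. TNFSF12 (TWEAK), TNFSF13B (BAFF) and TNFSF15 (TL1A) lay at or below 0.349 CPM in each library, with log2 fold changes of -0.76, -0.26 and -0.01 and overlapping genotypes.

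The receptors for TRAIL form a cluster on the short arm of chromosome 8, where TNFRSF10A and TNFRSF10B code for death receptors and TNFRSF10C and TNFRSF10D for decoys. TNFRSF10C, a decoy that is anchored in the membrane by lipid and has no cytoplasmic part, was higher in MUL1(-/-). Its levels were 1.62, 1.77 and 1.70 CPM in WT and 3.72, 4.24 and 4.21 CPM in MUL1(-/-), with no overlap. The log2 fold change was 1.26 ± 0.13 (SE; edgeR adjusted p = 2.24e-06). Exons of other annotated loci touch the bins that hold 86.6% of its counts, and bins at the same place on opposite strands held equal counts (median ratio 1 over 11 pairs), as in counting that ignores the strand. In the bins that no other gene touches, all within the annotated span of TNFRSF10C (chr8:23102590-23117437), the log2 fold change was 1.75 (edgeR adjusted p = 6.48e-05). In its most counted bin (chr8:23090148-23090288) it was 1.07, but that bin is shared and lies upstream of the span. That bin is therefore no separate check on TNFRSF10C. The levels in CPM above include it and other shared bins upstream of the span, from chr8:23084355 to chr8:23100684.

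TNFRSF10B was the most counted member. It held 92.4, 87.4 and 90.2 CPM in WT and 123, 126 and 136 CPM in MUL1(-/-), with a log2 fold change of 0.51 ± 0.07 (SE; edgeR adjusted p = 2.88e-05). TNFRSF10D held 19.4, 20 and 29.6 CPM in WT and 32.7, 34.9 and 33.4 CPM in MUL1(-/-), where WT replicate 3 lay nearest to the MUL1(-/-) libraries, with a log2 fold change of 0.55 ± 0.13 (SE; edgeR adjusted p = 0.00302). Neither had a log2 fold change above 1, though the genotypes did not overlap in either. TNFRSF10A, the remaining death receptor of the cluster, had 0 counts in the 3 WT libraries and 3, 3 and 4 counts in MUL1(-/-), and was not tested. For each receptor of this cluster, all 20 of the nearest tested genes had a log2 fold change above 0, with medians of 0.56 to 0.58. Set against that median, TNFRSF10B differed by -0.06, TNFRSF10D by -0.03 and TNFRSF10C by 0.70 on the log2 scale.

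TNFRSF11B codes for osteoprotegerin, a secreted decoy for the bone-resorption ligand TNFSF11 (RANKL) that also binds TRAIL, and lies on the long arm of the same chromosome. It had 0, 2 and 1 counts in the WT libraries, each at or under the floor of 3 counts (0.0212 to 0.0242 CPM per library), and 43, 35 and 50 counts in the MUL1(-/-) libraries. In CPM these were 0.340, 0.280 and 0.403 in MUL1(-/-). Pooled over libraries the ratio was 44.9, with a 95% exact counting interval of 15 to 220 that covers counting error only. As a read appears to count in every bin it touches, the summed counts are not all separate reads and this interval is too narrow. The edgeR test, for which TNFRSF11B had enough counts in MUL1(-/-) alone, gave an adjusted p of 2.33e-06. Its fitted log2 fold change of 5.32 ± 0.53 (SE) depends on the count added to WT values near 0. All 5 bins with enough counts to compare were higher. They could reach that count only through the MUL1(-/-) libraries, so their direction adds no support. The 20 nearest tested genes had a median of 0.15. Its partner TNFSF11 had at most 7 counts in a library and was not tested. TNFRSF11A (RANK), the signalling receptor for the same ligand, held 16.3, 14.8 and 15.8 CPM in WT and 11.9, 11.4 and 12.9 CPM in MUL1(-/-). All of its MUL1(-/-) libraries were below WT, with a log2 fold change of -0.38 ± 0.09 (SE; edgeR adjusted p = 0.00394) that did not pass the threshold of 1. The 20 tested genes nearest to TNFRSF11A had a median of -0.26.

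TNFRSF1A, TNFRSF21 and TNFRSF12A, also among the receptors of highest level, did not pass either threshold. TNFRSF1A, the main receptor for soluble TNF, held 55.9, 48.3 and 53.8 CPM in WT and 57.5, 55.8 and 56.1 CPM in MUL1(-/-), which overlap, with a log2 fold change of 0.10 ± 0.07 (SE; edgeR adjusted p = 0.307). TNFRSF21, another receptor with a death domain, held 27.6, 25.0 and 24.9 CPM in WT and 25.9, 28.1 and 29.3 CPM in MUL1(-/-), a log2 fold change of 0.10 ± 0.08 (SE; edgeR adjusted p = 0.339). TNFRSF12A, the receptor for TWEAK, held 20.7, 17.5 and 14.3 CPM in WT and 16.1, 15.5 and 12.5 CPM in MUL1(-/-), a log2 fold change of -0.25 ± 0.13 (SE; edgeR adjusted p = 0.136). Without WT replicate 3 the edgeR adjusted p of TNFRSF12A was 0.0177, at a log2 fold change of -0.38. For all 3 the WT and MUL1(-/-) ranges overlapped.

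FAS, the receptor for FASLG, was below WT in each MUL1(-/-) library. It held 19.9, 20.1 and 20 CPM in WT and 11.2, 13.6 and 15 CPM in MUL1(-/-). The WT libraries lay close together and the MUL1(-/-) libraries were spread. The log2 fold change was -0.59 ± 0.10 (SE; edgeR adjusted p = 0.000303), which did not pass the threshold of 1. Of its 37 bins, 27 were lower without overlap and none was higher, though adjacent bins can share reads. Of the 20 tested genes nearest to FAS, 15 had a log2 fold change below 0, and the median was -0.31. Less this median, the log2 fold change of FAS was -0.29. Its ligand FASLG had 0 counts in 5 libraries and 3 counts in MUL1(-/-) replicate 3.

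FAS transcripts that skip exon 6, which codes for the segment crossing the membrane, give a soluble receptor. The exon spans 63 bases (chr10:89010753-89010815, plus strand, GRCh38; GENCODE transcript of 9 exons) and is shown because the ratio below rests on reads that touch it, with no part set apart in capitals.
FAS exon 6: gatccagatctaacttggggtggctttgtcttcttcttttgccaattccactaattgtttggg
Its count was 96, 92 and 96 in the WT libraries and 55, 59 and 68 in the MUL1(-/-) libraries. Per base and relative to the mean of exons 5 and 7, this was 1.02, 0.89 and 0.93 in WT and 0.96, 0.85 and 0.96 in MUL1(-/-). The means were 0.95 ± 0.07 and 0.92 ± 0.06 (SD, n = 3), and the difference of -0.02 was within the spread of the replicates (two-sided exact permutation test p = 0.7, where 0.1 is the smallest p that 3 against 3 allows). Bin counts do not count the reads that join exon 5 to exon 7, so skipping was not measured directly.

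Of the 7 receptors on 1p, 4 were tested, 2 of them were lower in MUL1(-/-) and none was higher, by edgeR (0 at an unadjusted p under 0.05) and by DESeq2 (0). TNFRSF25, a receptor with a death domain that lymphocytes use, held 14.1, 12.1 and 11.8 CPM in WT and 4.81, 5.0 and 5.96 CPM in MUL1(-/-). The log2 fold change was -1.27 ± 0.11 (SE; edgeR adjusted p = 7.50e-07), and 31 of its 32 bins with enough counts to compare were lower without overlap. TNFRSF25 shares an identifier with its neighbour PLEKHG5 in the deposited tables, and with that identifier kept whole the log2 fold change was -1.08 (edgeR adjusted p = 4.20e-07). TNFRSF9, the co-stimulatory receptor of activated T cells and the receptor for TNFSF9, had 169, 188 and 177 counts in WT and 64, 65 and 68 in MUL1(-/-). In CPM this was 1.33, 1.33 and 1.41 against 0.506, 0.519 and 0.549, with the libraries of each genotype close together. This is a log2 fold change of -1.37 ± 0.16 (SE; edgeR adjusted p = 1.28e-05).

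TNFRSF14 (HVEM), the receptor for TNFSF14, held 0.291, 0.445 and 0.611 CPM in WT and 0.364, 0.288 and 0.242 CPM in MUL1(-/-). The genotypes overlapped and the log2 fold change was -0.59 ± 0.29 (SE; edgeR adjusted p = 0.124, and 0.0391 without WT replicate 1). TNFRSF1B, the receptor through which membrane-bound TNF signals mainly, held 0.0944, 0.0212 and 0.119 CPM in WT and 0.103, 0.0959 and 0.0646 CPM in MUL1(-/-). These gave 0.19 ± 0.51 as log2 fold change (SE; edgeR adjusted p = 0.807), and it turned to -0.28 without WT replicate 2, which had 3 counts. The other 3 receptors on 1p were too low to test. TNFRSF18 (GITR) had 17, 10 and 0 counts in WT and 4, 14 and 2 in MUL1(-/-), TNFRSF4 (OX40) had 2, 4 and 7 counts in WT and 7, 3 and 6 in MUL1(-/-), and TNFRSF8 (CD30) had 3, 5 and 7 counts in WT and 3, 13 and 20 in MUL1(-/-). The last of these was tested when MUL1(-/-) replicate 1 was left out, and then had a log2 fold change of 1.79 (edgeR adjusted p = 0.0209).

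Genes beside the 1p receptors mostly had log2 fold changes below 0. Around TNFRSF25, 19 of the 20 nearest tested genes had a log2 fold change below 0, with a median of -0.71, and 6 of them passed both thresholds. Around TNFRSF9 all 20 were below 0, with a median of -0.78, and 8 passed both thresholds. Less these medians, the log2 fold changes of TNFRSF25 and TNFRSF9 were -0.56 and -0.59, and neither was beyond 1. TNFRSF14 and TNFRSF1B, with neighbour medians of -0.75 and -0.32, differed from them by 0.16 and 0.51. The untested TNFRSF18 and TNFRSF4 had neighbour medians of -0.48, and TNFRSF8 had -0.24. MUL1, the targeted gene, also lies on 1p, with a log2 fold change of 0.14 and a neighbour median of -0.54. Any link between its place and the values of the receptors was not tested. Among the 17 tested receptors elsewhere 2 were higher and 0 lower, with 7 higher and 3 lower at an unadjusted p under 0.05 by edgeR, and DESeq2 gave 0 lower. The median log2 fold change was -0.93 for the 4 on 1p and 0.13 for the 17 elsewhere, a difference that was not tested.

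**Figure D2:**
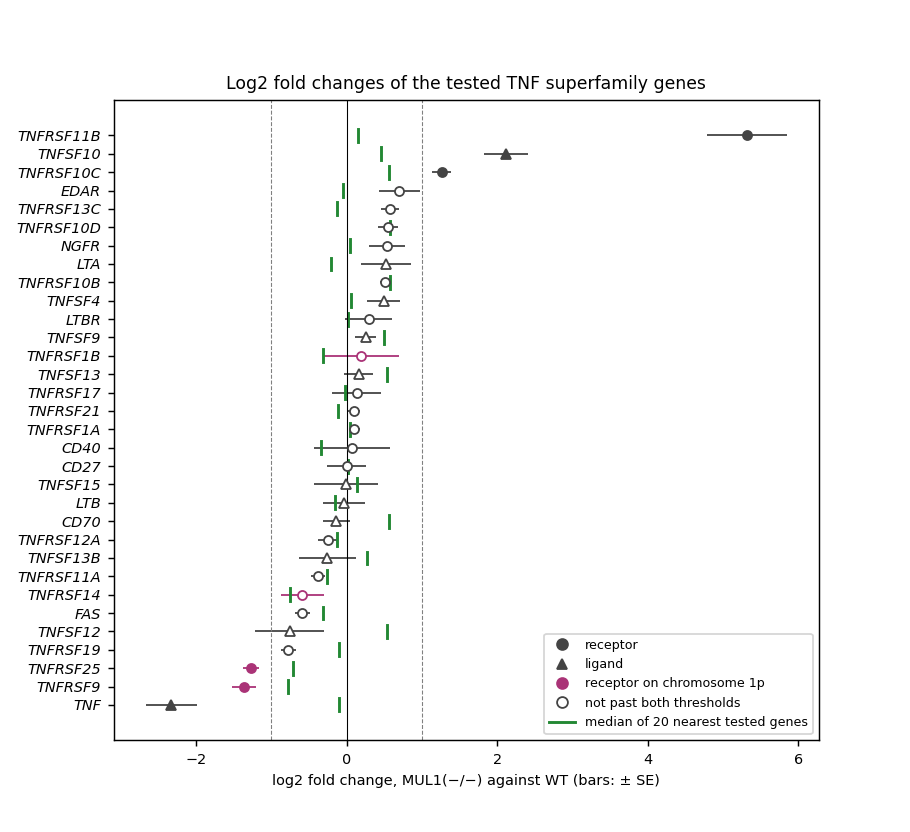
Log2 fold change of MUL1(-/-) against WT with its SE for the 32 tested TNF superfamily genes, ordered by value. Triangles are ligands, circles receptors, purple marks chromosome 1p, filled symbols passed both thresholds, dashed lines stand at -1 and 1, and each green tick is the median of the 20 nearest tested genes; TNFRSF25 and TNFRSF9 lie below ticks that are themselves at -0.71 and -0.78.

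The remaining receptors are known mainly from lymphoid or developing tissue. TNFRSF19, a receptor of epithelial and neural progenitors, was below WT in every MUL1(-/-) library, at 11.1, 11.6 and 12.5 CPM against 7.0, 7.09 and 6.31 CPM, with a log2 fold change of -0.78 ± 0.10 (SE; edgeR adjusted p = 1.87e-05). TNFRSF13C, the receptor of B cells for BAFF, was above WT in each, at 7.27, 7.36 and 5.56 CPM against 10.1, 10.6 and 9.34 CPM, with a log2 fold change of 0.57 ± 0.12 (SE; edgeR adjusted p = 0.00131). Neither log2 fold change passed the threshold of 1. EDAR, the ectodysplasin receptor of skin appendages, had 24 to 37 counts in WT and 40 to 52 in MUL1(-/-), a log2 fold change of 0.70 with an edgeR adjusted p of 0.0505. NGFR, the neurotrophin receptor of the family, held 2.77, 2.5 and 3.43 CPM in WT and 4.73, 5.6 and 2.19 CPM in MUL1(-/-), where replicate 3 lay below all WT libraries, and its log2 fold change was 0.53 (edgeR adjusted p = 0.104). LTBR, TNFRSF17 (BCMA), CD40 and CD27 held at most 0.420 CPM in any library, with overlapping genotypes. Their log2 fold changes were 0.29, 0.13, 0.07 and 0.00. Exons of other annotated loci touch the bins that hold 85.2% of the counts of CD27. Its most counted bin had a log2 fold change of 0.43 (edgeR adjusted p = 0.431).

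The 12 members that were not tested were of 3 kinds. FASLG, TNFRSF13B (TACI) and TNFSF8 (CD30 ligand) had 3 counts or fewer in every library. TNFRSF10A, TNFRSF18, TNFRSF4, TNFRSF8, TNFSF11, TNFSF14 (the ligand of TNFRSF14) and TNFSF18 (the ligand of TNFRSF18) were low, with at most 20 counts in a library. TNFSF14 had 3, 2 and 6 counts in WT and 2, 1 and 1 in MUL1(-/-), and TNFSF18 had counts in MUL1(-/-) replicates 1 and 2 only, 7 and 1. TNFRSF6B, a secreted decoy for FASLG, and the read-through locus TNFSF12-TNFSF13 had no bin of their own. Bins that touch TNFRSF6B exons, shared with RTEL1, held 3.87 ± 0.308 CPM against 3.77 ± 0.646 CPM in MUL1(-/-) (SD, n = 3 each). The whole joined identifier with RTEL1 had a log2 fold change of -0.30 (edgeR adjusted p = 0.00599). The joined locus of TNFSF12 and TNFSF13 had a log2 fold change of 0.17 (edgeR adjusted p = 0.425).

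Beside the members, 69 genes of the pathway in 6 lists were followed, of which 65 were tested, 3 were higher and 3 were lower in MUL1(-/-). The shares over all tested genes were 4.23% higher and 3.87% lower. An adjusted p under 0.05 alone was reached by 19 higher and 13 lower pathway genes, against 37.5% of all tested genes in either direction, and the median log2 fold change was 0.06. Of 14 tested genes in the list of death receptor complex components, 2 were higher and 0 lower (3 lower at an unadjusted p under 0.05 by edgeR, 0 by DESeq2). MLKL, the pore-forming effector of necroptosis, held 3.45, 3.67 and 4.89 CPM in WT and 13.4, 13.8 and 14 CPM in MUL1(-/-), a log2 fold change of 1.78 ± 0.12 (SE; edgeR adjusted p = 6.33e-08). RIPK1, the kinase at the base of the TNFRSF1A complex, held 3.78, 3.80 and 5.27 CPM in WT and 7.37, 6.99 and 12.4 CPM in MUL1(-/-), where replicate 3 was highest. For RIPK1 the log2 fold change was 1.06 ± 0.19 (SE; edgeR adjusted p = 0.00052), and it was under 1 without MUL1(-/-) replicate 3 (0.75) and without WT replicate 1 or 2 (0.98 each). RIPK3, the kinase that acts on MLKL, had at most 8 counts in a library and was not tested. CASP8 and FADD, picked as examples after their values were seen, had log2 fold changes of -0.32 and 0.40 with adjusted p under 0.05.

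Among the 22 genes of the list of TRAF adaptors, ubiquitin editors and kinases, 0 passed both thresholds in either direction by edgeR or DESeq2, and 8 were higher and 4 lower at an unadjusted p under 0.05 by edgeR. Log2 fold changes in it ran from -0.51 to 0.49. In the list of 11 IKK and NF-kB genes, NFKB2, the precursor of the p52 subunit, was lower at 60.7, 57.4 and 56.5 CPM in WT against 33.6, 30.8 and 21.4 CPM in MUL1(-/-), a log2 fold change of -1.03 ± 0.12 (SE; edgeR adjusted p = 1.23e-05). The genotypes did not overlap, and the value was -0.86 without MUL1(-/-) replicate 3 and -1.0 without WT replicate 1, neither past the threshold. No other gene of that list passed both, and 0 were higher by edgeR (3 at an unadjusted p under 0.05) or DESeq2. NFKB1 (0.73), NFKBIA (-0.71) and CHUK (-0.49), named after their values were seen, had adjusted p under 0.05 and log2 fold changes within 1.

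Of 14 tested genes in the list of inducible NF-kB targets, 1 was higher and 2 were lower, and the median log2 fold change was -0.34. CXCL1, a neutrophil-attracting chemokine, held 0.543, 0.856 and 1.03 CPM in WT and 0.411, 0.304 and 0.218 CPM in MUL1(-/-), a log2 fold change of -1.38 ± 0.28 (SE; edgeR adjusted p = 0.00107). NFKB2, above, is the other lower gene. CCL2, a monocyte-attracting chemokine, had 7, 13 and 19 counts in WT and 34, 44 and 21 in MUL1(-/-), where the nearest libraries of the genotypes were 19 and 21 counts. Its log2 fold change was 1.40 ± 0.40 (SE; edgeR adjusted p = 0.0116), and the call was lost without MUL1(-/-) replicate 2 (adjusted p = 0.0693) and without WT replicate 1 (adjusted p = 0.0562) by edgeR. By adjusted p alone 3 were higher and 7 lower. Of those, chosen after their values were seen, CXCL2, CXCL8 and ICAM1 had log2 fold changes of -0.83, -0.87 and -0.79, and TNFAIP2 and TRAF1 had 0.97 and 0.49. TNFAIP2 was above 1 in its most counted bin (1.21) and without a filter (1.01). It was also above 1 without MUL1(-/-) replicate 1 (1.14), MUL1(-/-) replicate 2 (1.01) or WT replicate 1 (1.05). VCAM1 passed both thresholds without WT replicate 3 (1.36), CXCL2 in its most counted bin (-1.56) and CXCL8 without MUL1(-/-) replicate 2 (-1.18). IL6 had 13, 13 and 10 counts in WT and 3, 6 and 0 in MUL1(-/-), and was not tested in the main fit. It passed both thresholds without a filter (-1.86), without MUL1(-/-) replicate 2 (-2.82) and without WT replicate 3 (-1.98). CCL20, another chemokine, had 28, 19 and 9 counts in WT and 3, 0 and 0 in MUL1(-/-), and did not pass edgeR's filter on low counts. DESeq2, which tested it, gave a log2 fold change of -4.16 (DESeq2 adjusted p = 0.000755).

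The 7 genes that shed or process the ligands held no gene past both thresholds by edgeR (0 of 7, with 2 higher and 1 lower at an unadjusted p under 0.05) or by DESeq2 (0), and ADAM17, the sheddase of TNF, had a log2 fold change of -0.02 ± 0.08 (SE). Among 4 superfamily genes that the symbol rule leaves out, EDA, the ligand of EDAR, held 11.5, 9.91 and 8.32 CPM in WT and 4.91, 5.50 and 4.42 CPM in MUL1(-/-). It was lower, with no overlap, at a log2 fold change of -1.0 ± 0.13 (SE; edgeR adjusted p = 2.25e-05) that lies at the threshold: without WT replicate 1 it was -0.89, without MUL1(-/-) replicate 3 -0.93 and without MUL1(-/-) replicate 1 -0.99, and DESeq2 did not place it beyond 1. EDA2R and RELT had log2 fold changes of -0.10 and 0.22, and CD40LG had 1 count in 6 libraries.

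**Figure D3:**
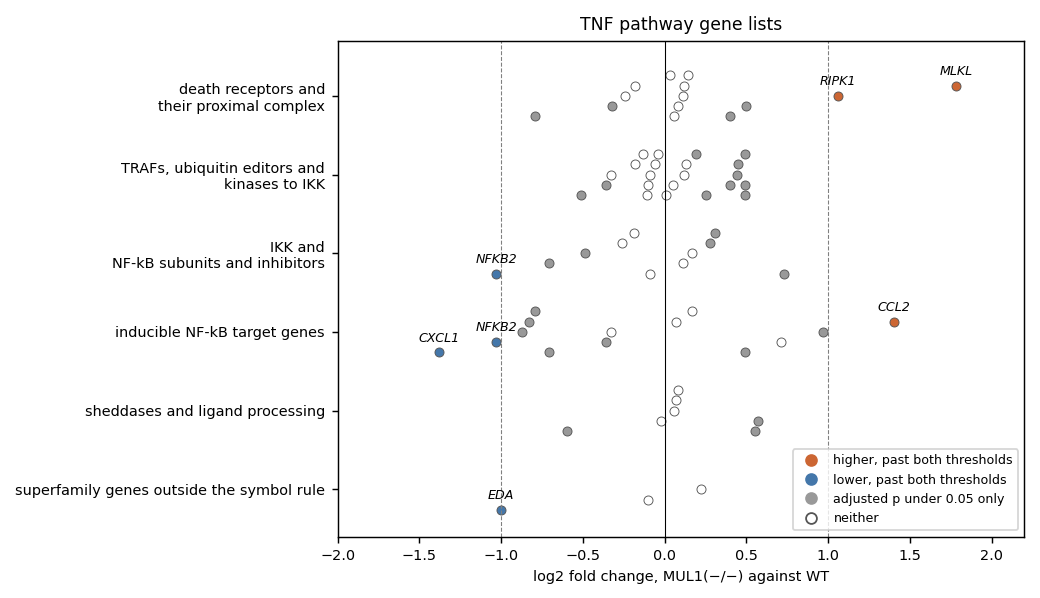
Log2 fold change of MUL1(-/-) against WT for each tested gene of the 6 lists around the TNF receptors, 1 row per list. Orange and blue points passed both thresholds, grey points only the adjusted p, white points neither, and dashed lines stand at -1 and 1; MLKL, RIPK1 and CCL2 lie to the right of 1, and CXCL1, NFKB2 and EDA at or to the left of -1.

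Summed markers of cell types lay at levels that did not overlap between the genotypes. Over 6 kidney and renal progenitor genes the summed level was 53.3 to 58.8 CPM in WT and 40.9 to 43.4 CPM in MUL1(-/-), with none at or under 3 counts. Over 4 epithelial genes it was 455 to 504 and 309 to 341 CPM, and over 2 fibroblast genes 20 to 25.1 and 15.2 to 19.1 CPM. The 7 leukocyte genes summed to 1.52 to 1.96 CPM in WT and 2.90 to 3.13 CPM in MUL1(-/-), with the T cell gene CD3E and the B cell gene MS4A1 at or under 3 counts in every library. The 3 endothelial genes summed to 0.0953 to 0.247 and 0.460 to 0.711 CPM. The part of these shifts in the values of TNF, TNFSF10 and the other members, many of them genes of leukocytes, was not tested.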

How the data were processed

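RNA of HEK293 cells, 3 WT and 3 MUL1(-/-) libraries grouped and numbered by the sample labels, was prepared with a SMARTER mRNA-Seq kit. The authors deposited raw, unnormalised counts for 597973 exon bins under 54848 identifiers on GRCh38. The submitters' processing notes name Trimmomatic 0.36 and STAR 2.5.2b, and the counting program is not given in the sources used here. From the counts in very short bins, a read appears to count in every bin it touches, so that sums exceed the number of reads and are less precise than their size implies. Gene counts were sums over bins. Bins of the 2031 identifiers that join overlapping genes went to the gene whose GENCODE 29 exon they touch alone, and bins touching several were left out (4.37% of counts).

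For the 57123 genes, edgeR 4.0.16 (R 4.3.3) was run with filterByExpr, TMM factors, the quasi-likelihood test and Benjamini-Hochberg adjustment over 25125 genes. SE is the log2 fold change over the square root of F. On simulated data for these 25125 genes, 200 of them changed by a log2 fold change of 2, edgeR recovered 199 with 1 false call and DESeq2 1.42.0 recovered 196 with 0. The changed genes were drawn from genes of higher mean level than TNF (0.179 CPM) and TNFRSF11B (0.174 CPM), and log2 fold changes nearer 1 were not simulated. The recovery therefore does not cover TNF, TNFRSF11B or calls near the threshold. Replicates differed by 2.95 to 10.8 times sampling noise (chi-square over its degrees of freedom, most counted bins), so no library was treated as a copy of another. Neighbours are the 10 nearest tested genes on each side. Single bins were compared where they held at least 10 counts over the 6 libraries, and bins of the same gene are not independent of each other. Tables and figures used Python 3.11.15, pandas 2.3.3, scipy 1.17.1 and matplotlib 3.10.9. RefSeq gave the promoter windows.

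The members, the 6 pathway lists and the marker lists were chosen with earlier results of these data known. Every tested member has its log2 fold change in the text. Values per library are given for members past both thresholds, tested receptors on 1p and the 6 members of highest mean CPM, and for pathway genes past both thresholds. Other named genes were chosen after their values were seen. Alternatives were DESeq2, RLE factors, no filter, at least 1 CPM in 3 samples, a replicate block, each library left out, the most counted bin, bins touched by no other gene, the adjusted p alone, and 1p receptors less their neighbours' median. Joined identifiers kept whole were added after seeing the data.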

Additional observations from a re-analysis of the deposited data

How the results depend on the processing

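All 6 members past both thresholds stayed past them, with the same sign, in the other fits that tested them (11 to 13 per gene, the neighbours' median and joined identifiers aside): TNF at -2.41 to -1.78, TNFRSF11B at 4.81 to 6.11, TNFSF10 at 1.90 to 2.33, TNFRSF10C at 1.07 to 1.75, TNFRSF9 at -1.40 to -1.22 and TNFRSF25 at -1.37 to -1.18 on the log2 scale, or -1.08 with its joined identifier whole. The 1.07 of TNFRSF10C came from its most counted bin, which is shared and lies outside the annotated span of the gene. A filter of at least 1 CPM in 3 samples did not test TNF, TNFRSF11B or TNFSF10, leaving 1 member higher and, in the pathway lists, 1 gene lower. Without a filter 5 members were higher, the added ones being TNFRSF10A (adjusted p = 0.0205, edgeR) and TNFSF18 (adjusted p = 0.049, edgeR), both with 0 counts in WT and at most 7 counts in a library. By the adjusted p alone 6 members were higher and 6 lower, and 19 pathway genes were higher and 13 lower. Less the median of their 20 nearest tested genes, 0 of the receptors on 1p were beyond 1, with TNFRSF25 at -0.56 and TNFRSF9 at -0.59. With each library left out in turn, 3 to 4 members were higher and 3 lower, 2 to 3 receptors on 1p passed (the added TNFRSF8, higher without MUL1(-/-) replicate 1), and 2 to 4 pathway genes were higher and 1 to 6 lower (1 without WT replicate 1, 5 without WT replicate 3 and 6 without MUL1(-/-) replicate 2). TNFRSF1B ranged from -0.28 without WT replicate 2 (edgeR adjusted p = 0.705) to 0.62 without WT replicate 3, and the cause was not tested. The FAS exon 6 difference was -0.07 against exon 5 alone and 0.03 against exon 7 alone, and -0.05 to 0.01 with a library left out.

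Deviations from group means correlated at -0.0812, 0.157 and 0.1 between same-numbered libraries (across 15858 genes), so the replicate numbers were not taken as pairs. With the replicate block 3 members were higher and 3 lower, 2 receptors on 1p passed, and 3 pathway genes were higher and 2 lower. An adjusted p crossed 0.05 by edgeR, with the log2 fold change within 1, for TNFRSF12A with the block (0.0353) and without WT replicate 3 (0.0177). The same held for TNFRSF14 without WT replicate 1 (0.0391), TNFSF4 in its most counted bin (0.0123) and EDAR with RLE factors (0.0475). Crossings were not looked for in every alternative for TNFSF4, EDAR and other members without values per library. The members left out for low counts had at most 20 counts in a library, which limits what depth allows for them. For the other alternative values (68 counts and ratios and 213 log2 fold changes) the call by both thresholds was the same, the count was within 1.5 times or the ratio was within the spread of the replicates.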
